A study of Mus musculus with 6 samples.

Results

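The apolipoproteins and Mttp are the genes for the proteins that hold lipoprotein particles together and steer them through the blood, and for the protein that loads those particles with lipid. The set was chosen by name, with earlier results of these data known. It holds 10 genes: Apoa1, Apoa2, Apoa4, Apoa5, Apob, Apoc1, Apoc2, Apoc3, Apoe and Mttp. Of the 10, 9 had a probe in the platform annotation, out of 16593 genes with one. Apoc1 and Apoc2 had 2 probes each, which made 11 probes, and all 11 were detected on all 6 arrays. Apob had no probe in that annotation and was not analysed here.

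The samples were whole livers of wild-type C57BL/6 mice, taken 5 days after an adenovirus was given and after a fast of 4 to 6 h. Ad-MafG, an adenovirus carrying the small Maf transcription factor MafG, was given to 3 mice, and the control virus Ad-Control (Ad-CMV) to 3 mice. Both groups therefore carried a virus, and no liver without one was compared. Each mouse gave 1 array, on Illumina BeadChips that read biotin-labelled copies of total RNA as bead intensities. The sources used here give neither age nor sex.

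Liver makes most plasma apolipoproteins. Mttp loads lipid onto ApoB in the endoplasmic reticulum to start a very-low-density lipoprotein (VLDL) particle, while ApoA1 and ApoA2 are the main proteins of high-density lipoprotein (HDL). In the blood, ApoC2 and ApoA5 favour the breakdown of triglyceride by lipoprotein lipase, ApoC3 and ApoC1 slow it or slow particle clearance, and ApoE binds the receptors that take remnants into hepatocytes.

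Normalised log2 intensity is the unit of every level below, and a difference is Ad-MafG minus Ad-Control on that scale unless a signal is named as non-normalized. Groups were compared with limma across 8827 detected genes, with an adjusted p under 0.05 as the threshold. The number of arrays limits the precision. The median non-normalized signal was 181.6 to 185.8 on the Ad-MafG arrays and 160.6 to 180 on the Ad-Control arrays, and 12802 to 13042 against 12079 to 12608 probes were detected. The Mafg probe itself read 10.39, 10.29 and 10.29 in livers labelled Ad-MafG, against 10.83, 10.71 and 11.04 in livers labelled Ad-Control (log2 difference −0.54, SE 0.11, limma adjusted p = 0.0341). It was therefore lower in the libraries labelled Ad-MafG, which would go against the labels if the probe read the vector's transcript. Every direction below rests on the labels alone. The call on Mafg was lost when any array except Ad-Control 2 was left out, with adjusted p up to 0.108. No source used here places the probe on the Mafg transcript, so whether it reads the vector's transcript is not known.

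Apoc2 was the 1 member whose level differed past the threshold, and it was about 2-fold higher in Ad-MafG livers. The other 8 members with a probe did not pass. Among all tested genes 6.29% were higher, 3.63% were lower and 9.91% differed in either direction, so 1 of 9 members is close to the share of all genes. At an unadjusted p under 0.05, 2 of 9 members passed, against 29.8% of all genes. The median difference was −0.0037 over the 9 members and −0.02 over all genes, with 5 members below 0 and 4 above. With each array scaled to its median the members' median was −0.23 (all genes 0.04), and with the authors' scaled values −0.25 (all genes −0.02), with 7 of 9 below 0 under each.

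**Figure D1:**
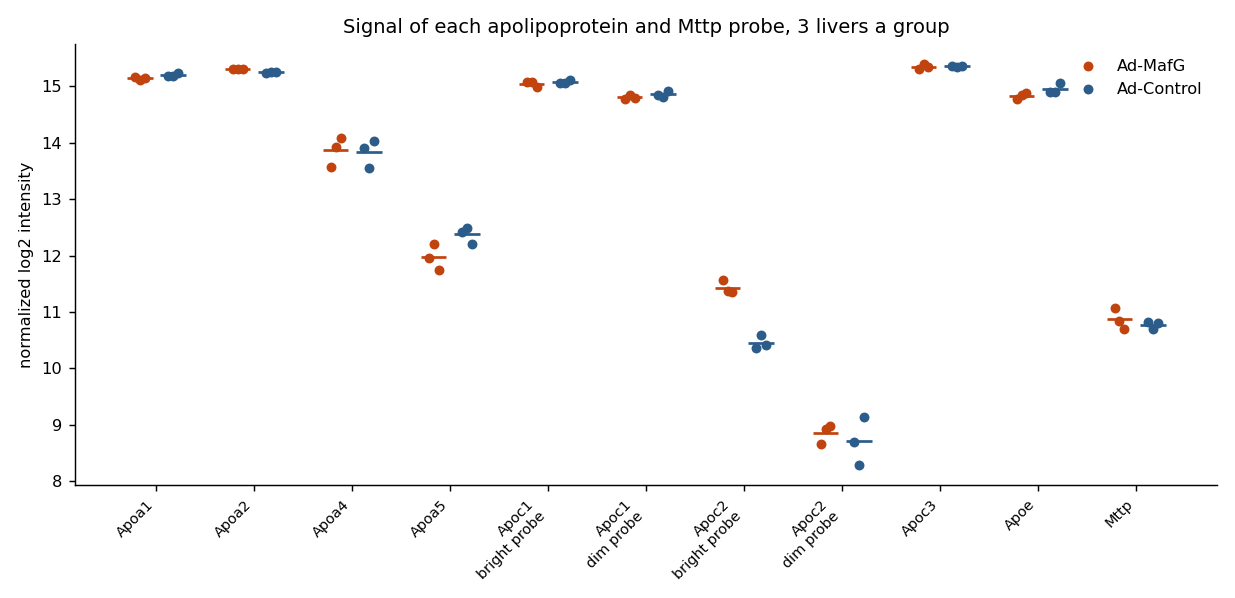
Normalised log2 intensity of each of the 11 probes of the 9 members on each array, Ad-MafG livers left of Ad-Control livers. Points are single livers and bars are group means. For the brighter Apoc2 probe the 3 Ad-MafG livers sit between 11.36 and 11.57, all above the 3 Ad-Control livers at 10.36 to 10.60.

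Apoc2 encodes the obligate cofactor of lipoprotein lipase. Its brighter probe, ILMN_2647820, read 11.57, 11.37 and 11.36 in Ad-MafG livers, against 10.36, 10.60 and 10.41 in Ad-Control livers. The groups did not overlap, and the gap between them exceeded the spread within either group. The difference was 0.98 (SE 0.12, limma adjusted p = 0.00972), a 1.97-fold higher level with a 95% interval of 1.63 to 2.37. In non-normalized signal the same probe gave 3418, 2958 and 2996 in Ad-MafG livers and 1210, 1692 and 1347 in Ad-Control livers, a ratio of 2.21. The authors' deposited table lists group means of 2667.1 for Ad-MafG and 1364.7 for Ad-Control, with a signed difference score of 344.2.

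The dimmer Apoc2 probe, ILMN_2880540, did not show the same size of difference. It read 8.67, 8.92 and 8.99 in Ad-MafG livers, against 8.69, 8.29 and 9.14 in Ad-Control livers, and the groups overlapped. Fitted over all 12893 detected probes, its difference was 0.15 (SE 0.21, 95% interval −0.35 to 0.65, limma adjusted p = 0.677), an interval that ends below the estimate of the brighter probe. In that fit 9.90% of probes passed. The authors' deposited table gives this probe 458 for Ad-MafG and 398.9 for Ad-Control, with a difference score of 0.277.

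The gap between the Apoc2 probes within an array, brighter minus dimmer, was 2.91, 2.45 and 2.37 in Ad-MafG livers and 1.67, 2.30 and 1.28 in Ad-Control livers. These values did not overlap, and the gap was 0.83 wider in Ad-MafG livers. An exact two-sided permutation test over the 6 arrays gave p = 0.1, the smallest value that 3 against 3 arrays can give. The probes of one gene share their RNA samples and are no replicates. No source used here places either probe on the transcript, and the Apoc2 difference rests on 1 of 2 probes. Taken as the mean of both probes, the Apoc2 difference was 0.56 and still passed. Of the 318 further probes of called genes, 158 (49.7%) passed in the same direction as the probe that stood for the gene, and 14 had the opposite sign.

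**Figure D2:**
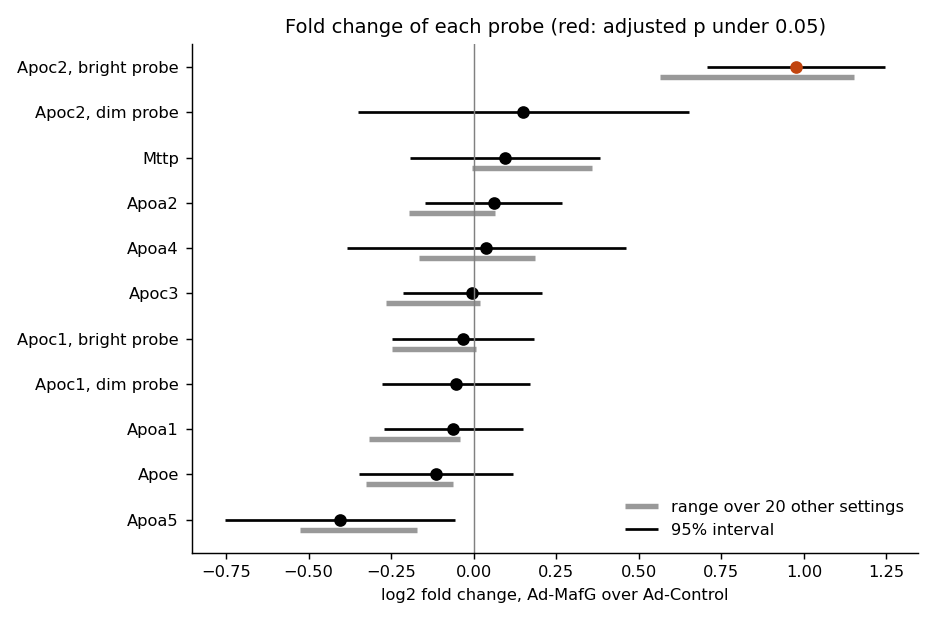
Log2 difference, Ad-MafG over Ad-Control, of each member probe with its 95% interval, and the range of estimates over 20 other settings. The brighter Apoc2 probe is the 1 probe whose estimate (0.98) passed the threshold, while the dimmer one spans −0.35 to 0.65.

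Apoc2 and Apoa5 had the smallest unadjusted p-values of the members, and their upstream sequence is shown for that reason. Sequences are from RefSeq, build GRCm38.p6, on the gene's own strand up to the base before the listed start. The Apoc2 stretch is chr7:19677942-19678083 (minus strand), shortened to 142 bases where the window meets the neighbouring gene Apoc4. Capitals mark AGGTCA, the core letters that nuclear receptors bind, 115 bases before the start. The Apoa5 stretch is chr9:46268358-46268607 (plus strand), and capitals mark TATAAA, the TATA box letters, 31 bases before the start.
Apoc2: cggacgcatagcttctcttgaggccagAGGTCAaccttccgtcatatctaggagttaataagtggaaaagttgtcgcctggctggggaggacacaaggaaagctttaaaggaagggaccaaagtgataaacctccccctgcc
Apoa5: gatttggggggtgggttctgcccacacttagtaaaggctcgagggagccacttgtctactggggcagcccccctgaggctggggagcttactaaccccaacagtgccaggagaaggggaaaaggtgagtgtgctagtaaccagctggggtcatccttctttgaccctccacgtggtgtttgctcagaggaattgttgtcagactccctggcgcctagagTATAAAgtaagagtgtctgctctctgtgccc
These letters are a description of sequence and not of binding. In the 250 bases before the start, searched on both strands, AGGTCA occurred in 2 of 12 windows listed for 8 members and in 14% of all 32851 windows of the table. TATAAA occurred in 5 of 12 member windows and in 12.4% of all windows. The member windows include alternative starts and are not independent: the 2 Apoa5 windows overlap and hold the same TATAAA, and the 5 windows belong to 4 genes. TGCTGA, the arm of the Maf recognition element, occurred in 0 of 12 and in 16.1% of all, and TGACNNNGC, the core bound by small Maf heterodimers, in 0 of 12 and in 10.2% of all.

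Apoa5, a liver-made apolipoprotein that promotes triglyceride breakdown, had the most negative difference of the members but did not pass. It read 11.96, 12.21 and 11.74 in Ad-MafG livers, against 12.42, 12.50 and 12.21 in Ad-Control livers. The groups did not overlap in normalised values, with Ad-MafG 2 just below Ad-Control 3, and they overlapped in non-normalized signal. The difference was −0.41 (SE 0.15, 95% interval −0.75 to −0.06, limma adjusted p = 0.119), and its unadjusted p was under 0.05. Over the 20 other settings the Apoa5 difference lay between −0.53 and −0.17 and the adjusted p between 0.0571 and 0.372.

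The HDL proteins Apoa1 and Apoa2 and the other abundant members differed little on the normalised scale. Apoa1, the main HDL protein, read 15.17, 15.12 and 15.14 in Ad-MafG livers and 15.19, 15.19 and 15.24 in Ad-Control livers. The difference was −0.06 (limma adjusted p = 0.678), and the interval of the fold was 0.828 to 1.11. Every Ad-MafG liver was lower than every Ad-Control liver. Apoa2, the second HDL protein, read 15.30, 15.31 and 15.31 in Ad-MafG livers and 15.24, 15.26 and 15.26 in Ad-Control livers. Its difference was 0.06 (limma adjusted p = 0.678), with a fold interval of 0.904 to 1.20 and all normalised Ad-MafG values above the Ad-Control values. In non-normalized signal the Apoa2 groups overlapped, and those of Apoa1 did not. A p that misses the threshold leaves these intervals as what the arrays can tell.

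Apoc3, an inhibitor of lipoprotein lipase and of particle clearance, read 15.31, 15.40 and 15.35 in Ad-MafG livers and 15.36, 15.35 and 15.36 in Ad-Control livers, and the groups overlapped. Its difference was −0.0037 (limma adjusted p = 0.982), with a fold interval of 0.861 to 1.15. Apoc1, which hinders uptake of remnants, read 15.07, 15.07 and 15.00 on its brighter probe in Ad-MafG livers and 15.06, 15.06 and 15.12 in Ad-Control livers. Both Apoc1 probes overlapped between groups, with differences of −0.03 and −0.05. Their gap within an array differed by 0.02 between groups (exact two-sided permutation p = 0.7, 3 against 3 arrays), unlike the Apoc2 pair's 0.83, a contrast that was not itself tested.

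Apoe, the ligand of the LDL receptor and of Lrp1, read 14.78, 14.85 and 14.88 in Ad-MafG livers and 14.90, 14.90 and 15.06 in Ad-Control livers. The 3 Ad-MafG livers were lower than the 3 Ad-Control livers without overlap, and the difference was −0.11 (95% interval −0.35 to 0.12, limma adjusted p = 0.475). In non-normalized signal the Apoe groups overlapped. Apoa4, which rides on triglyceride-rich particles and HDL, had the largest SD in both groups among the probes that stood for the members (0.26 in Ad-MafG and 0.25 in Ad-Control livers). It read 13.58, 13.93 and 14.09 in Ad-MafG livers and 13.90, 13.55 and 14.04 in Ad-Control livers, with a difference of 0.04 and an interval of −0.38 to 0.46 (limma adjusted p = 0.91). For Apoa4 a change of up to about 1.38-fold lies inside the interval.

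Mttp, the lipid transfer protein, read 11.07, 10.83 and 10.70 in Ad-MafG livers and 10.82, 10.70 and 10.80 in Ad-Control livers, and the groups overlapped. Its difference was 0.10 (SE 0.12, 95% interval −0.19 to 0.38, limma adjusted p = 0.635). Without background correction or normalization the Mttp difference was 0.36 and passed (limma adjusted p = 0.0427), under a setting in which the median of all genes was also shifted by 0.21. Across the members, normalised levels did not overlap between groups for 2 genes in the higher direction and 3 in the lower, or 5 of 9. The shares of all genes were 18.3% higher, 17.9% lower and 36.2% in either direction.

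For most members the arrays were read near the top of their range. Apoa1, Apoa2, Apoc1, Apoc3 and Apoe were among the 35 genes at least as bright as Apoe, and the brightest signal on any array was 44377. None of those 35 genes passed the threshold in limma (0 of 35, with 1 at an unadjusted p under 0.05), and their median absolute difference was 0.06, against 0.21 over all genes. Their groups did not overlap for 11 of 35 genes (31.4%). Quantile normalization gives the brightest probes values set by rank, so equal values recur there.

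The sign of the small differences at the bright end depended on the scaling. With each array scaled to its median, the median of the 35 bright genes was −0.24 and that of all genes 0.04. With the authors' scaled values it was −0.26, against −0.02 for all genes. The bright members moved with it. With median scaling and with the authors' scaled values, Apoa1 stood at −0.29 and −0.32, Apoe at −0.30 and −0.33, Apoc3 at −0.24 and −0.27, Apoc1 at −0.23 and −0.25, and Apoa2, with its sign turned, at −0.17 and −0.20. None of these passed (limma adjusted p of 0.113 to 0.33). Saturation of these probes was not tested.

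**Figure D3:**
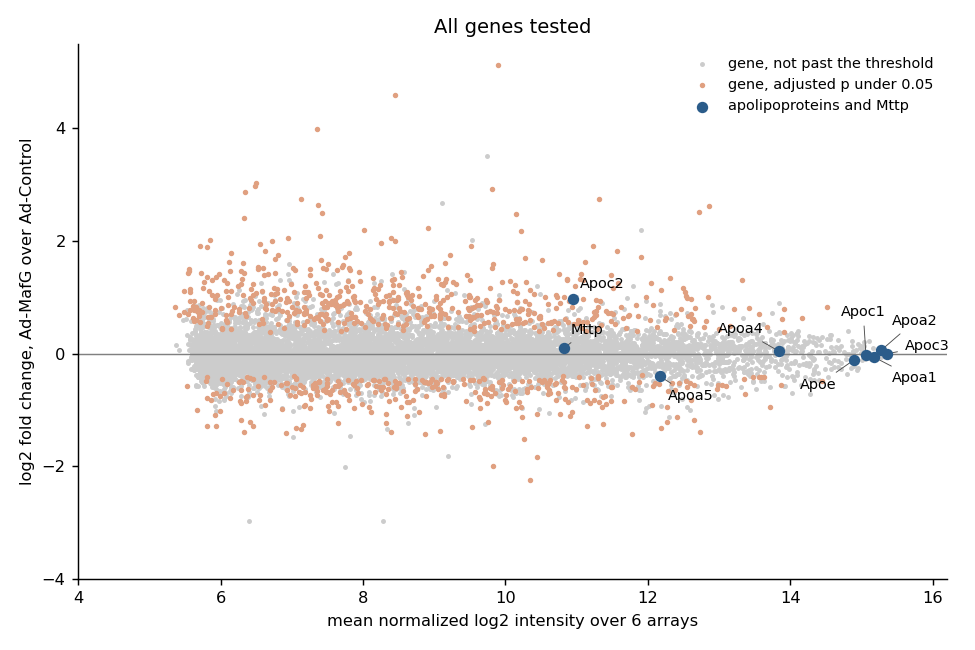
Log2 difference, Ad-MafG over Ad-Control, of every tested gene against its mean normalised log2 intensity over the 6 arrays, with the members named. The 35 genes at least as bright as Apoe lie between −0.29 and 0.23, and Apoc2 stands at 0.98.

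Apoc2, Apoc1 and Apoe lie side by side on chromosome 7, in the RefSeq gene order Clptm1, Apoc2, Gm44805, Apoc4, Apoc1, Apoe, Tomm40. Apoc4, the apolipoprotein gene next to Apoc2, had a difference of −0.17 (limma adjusted p = 0.496), and its groups overlapped. Around this cluster 10 of 12 listed neighbours that are not members were tested, and 0 passed in limma (1 at an unadjusted p under 0.05), with differences of −0.25 to 0.60. The highest was Relb, an NF-kB subunit, at 0.60 (adjusted p = 0.0796). Among all tested genes 9.91% passed and 29.8% had an unadjusted p under 0.05. RefSeq lists Gm44805 as a locus across Apoc2 and Apoc4, and no probe is named for it. Signal from such a transcript and from Apoc2 cannot be told apart.

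Apoa1, Apoc3, Apoa4 and Apoa5 lie together on chromosome 9, between Sik3 and Zpr1. Of 10 listed neighbours 6 were tested, and 0 passed in limma (3 at an unadjusted p under 0.05), with differences of −0.84 to 0.31. Among all tested genes 9.91% passed and 29.8% had an unadjusted p under 0.05. Sik3, a salt-inducible kinase, had −0.84 (adjusted p = 0.0506), and Zpr1, a zinc finger protein on the far side of Apoa5, had −0.35 (adjusted p = 0.106). The members of the cluster ran from −0.41 for Apoa5 to 0.04 for Apoa4. Around the members that lie alone, 5 of 10 listed neighbours of Apoa2 and 5 of 10 of Mttp were tested, and the 3 that passed are named after their values were seen. Differences ran from −0.83 to 3.51 around Apoa2 and from −0.13 to 0.66 around Mttp, with 3 neighbours of each at an unadjusted p under 0.05. The 3.51 was Fcer1g beside Apoa2, whose groups did not overlap and which did not pass (SE 1.08, limma adjusted p = 0.0812). Nr1i3, the nuclear receptor CAR beside Apoa2, had −0.83 (limma adjusted p = 0.00999) and passed with every array left out in turn. H2az1, a histone variant, had 0.66 (adjusted p = 0.0206) and Trmt10a, a tRNA methyltransferase, 0.65 (0.0331), both near Mttp. H2az1 missed the threshold without Ad-MafG 1, 2 or 3 or Ad-Control 3 (up to 0.072), and Trmt10a when any array except Ad-MafG 2 was left out (up to 0.107).

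**Figure D4:**
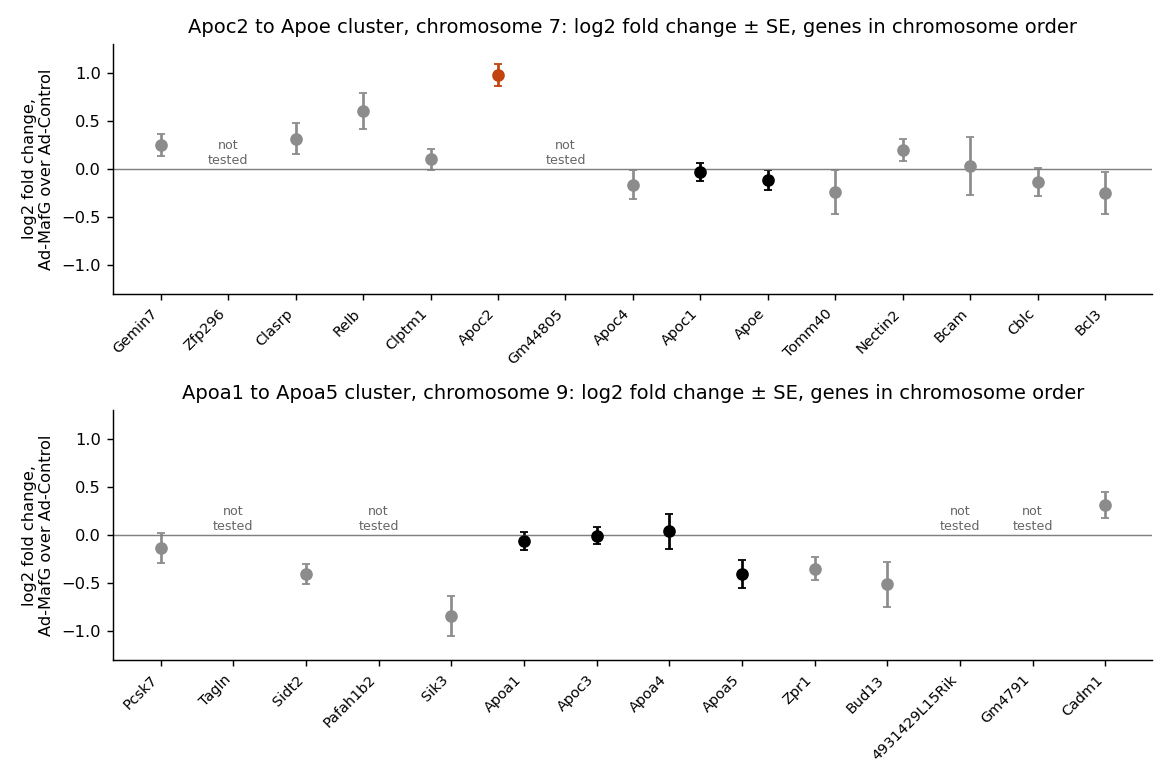
Log2 difference, Ad-MafG over Ad-Control, of the genes in RefSeq order along the 2 apolipoprotein clusters, by rank of position. Error bars are 1 SE to each side and not 95% intervals. Apoc2 (0.98) stands above its neighbours Clptm1 (0.10) and Apoc4 (−0.17).

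The genes whose centred values over the 6 arrays lay closest to those of Apoc2, among 8818 genes that are not members, were Atp1b3, Ska3 and Ticam2. The root mean square distance was 0.06 for Atp1b3, a sodium pump subunit, 0.07 for Ska3, a kinetochore protein, and 0.09 for Ticam2, a Toll-like receptor adaptor. Atp1b3 itself differed by 1.02, so the likeness includes the difference between groups. Ska3 and Ticam2 were detected on 3 of 3 Ad-MafG and 0 of 3 Ad-Control arrays, so they were tested only through the group where they are higher, and their distance from Apoc2 rests on Ad-Control values that are not above background.

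Of the other apolipoproteins and the Apob editing enzyme, 10 of 15 listed genes were tested, 2 were higher and 1 was lower, with a median of −0.12. Among all tested genes 6.29% were higher and 3.63% lower, with a median of −0.02. Apobec1, which edits the Apob message to give the short ApoB form, was higher (11.32, 11.15 and 11.19 in Ad-MafG livers, against 10.75, 10.79 and 10.56 in Ad-Control livers, log2 difference 0.52, limma adjusted p = 0.0337). Apobr, a receptor for ApoB particles found on macrophages, was higher by 0.94 (limma adjusted p = 0.0153). Apol9b, of the interferon-inducible ApoL family, was lower, with a difference of −0.90 (limma adjusted p = 0.0425). Next in order of p came Apon at −0.19, Apoc4 at −0.17 and Apom at −0.12, none of which passed. Apobec1 missed the threshold when any array except Ad-Control 2 was left out (adjusted p up to 0.102), Apobr without Ad-MafG 1 or Ad-MafG 3 (up to 0.0554) and Apol9b whichever array was left out (up to 0.124).

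For lipoprotein assembly and secretion, 26 of 31 listed genes were tested, 1 was higher and 0 were lower. Of the 26, 5 had an unadjusted p under 0.05 and 17 lay below 0, with a median of −0.12. The shares of all genes were 6.29% higher, 3.63% lower and 29.8% at an unadjusted p under 0.05, with a median of −0.02. Over the scalings tried, the authors' values included, 17 to 19 of 26 lay below 0. Without background correction or normalization the median was 0.11, with 5 of 26 below 0, and the median of all genes was 0.21. The 1 gene was Sort1, the sortilin that binds ApoB in the Golgi, at 10.22, 10.24 and 10.27 in Ad-MafG livers and 9.77, 9.71 and 9.55 in Ad-Control livers (log2 difference 0.57, limma adjusted p = 0.0222). It missed the threshold without Ad-MafG 1, 2 or 3 or Ad-Control 3, with adjusted p up to 0.0762. Tm6sf2, which helps to lipidate VLDL, had 0.37 (adjusted p = 0.0834), Aadac, a lipase of the endoplasmic reticulum, −0.28 (0.118) and Mia3, which loads large cargo for export, −0.35 (0.14).

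For lipoprotein receptors and uptake, 12 of 19 listed genes were tested, 0 were higher and 1 was lower. Of the 12, 2 had an unadjusted p under 0.05 and 11 lay below 0, with a median of −0.14. The shares of all genes were 6.29% higher, 3.63% lower and 29.8% at an unadjusted p under 0.05, with a median of −0.02. Over the scalings tried, the authors' values included, 8 to 11 of 12 lay below 0. Without background correction or normalization, where the median of all genes was 0.21, the median was 0.16 and 4 of 12 lay below 0. In that setting Scarb2, a lysosomal membrane protein, was the 1 gene past the threshold, higher by 0.31 (limma adjusted p = 0.0458). Lsr, a receptor for triglyceride-rich particles, read 9.77, 9.79 and 10.07 in Ad-MafG livers and 10.33, 10.30 and 10.47 in Ad-Control livers (log2 difference −0.49, limma adjusted p = 0.0472). It missed the threshold when any 1 array was left out, with adjusted p up to 0.137, and passed in 8 of 14 settings that kept all 6 arrays. Lrp1, a remnant receptor that binds ApoE, had −0.36 (adjusted p = 0.108), Pdzk1, the adaptor of the HDL receptor, −0.27 and Lrp5 −0.22.

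For HDL formation and plasma lipid remodelling, 16 of 22 listed genes were tested, 2 were higher and 3 were lower, with a median of −0.24. Among all tested genes 6.29% were higher and 3.63% lower, with a median of −0.02. Lpl, the lipase that ApoC2 activates, was 3.27-fold higher, at 12.64, 12.42 and 13.21 in Ad-MafG livers and 10.94, 11.51 and 10.69 in Ad-Control livers (limma adjusted p = 0.016). Pltp, the phospholipid transfer protein, was 2.40-fold higher (limma adjusted p = 0.04). Both are made by macrophages as well as other cells. Saa1 and Saa2, acute-phase proteins carried on HDL, had differences of −2.25 (limma adjusted p = 0.0118) and −2.00 (0.025), and Gpld1, an HDL-borne phospholipase, had −0.60 (0.0375).

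Saa1 and Saa2 are near-identical genes, so their probes may share signal and the values are uncertain for each. Bmp1, the protease that matures ApoA1, had −0.42 (limma adjusted p = 0.0551), Abcg1, a cholesterol exporter, 0.82 (0.0713) and Lcat, the enzyme that ApoA1 activates, −0.36 (0.0953). Saa1 passed with every array left out in turn. Lpl missed the threshold without Ad-MafG 1 or Ad-Control 1 (adjusted p up to 0.0508) and Saa2 without Ad-Control 1 or 3 (up to 0.0733). Pltp missed it when any array except Ad-Control 1 was left out (up to 0.128), and Gpld1 when any except Ad-Control 2 was (up to 0.111).

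For the hepatic regulators of apolipoprotein genes, 26 of 32 listed genes were tested, 0 were higher and 4 were lower in limma, with 11 at an unadjusted p under 0.05. Their median was −0.26, and 25 of 26 lay below 0. The shares of all genes were 6.29% higher, 3.63% lower and 29.8% at an unadjusted p under 0.05, with a median of −0.02. Over the scalings tried, the authors' values included, 23 to 25 of 26 lay below 0, with medians of −0.28 to −0.24. Without background correction or normalization, where the median of all genes was 0.21, 14 of 26 lay below 0 and the median was −0.0051. In that setting none of the 4 passed, and Nr1h3, the oxysterol receptor LXR alpha, passed as higher by 0.37 (limma adjusted p = 0.0365). Nr1d1, the repressor Rev-erb alpha, read 5.91, 5.89 and 6.12 in Ad-MafG livers and 6.74, 6.82 and 6.66 in Ad-Control livers (log2 difference −0.77, limma adjusted p = 0.0121). Srebf2, the activator of cholesterol synthesis genes, had −0.66 (0.0141), Nr2f2, the receptor COUP-TFII, −0.52 (0.0284) and Rxra, the shared partner of several nuclear receptors, −0.45 (0.0444).

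None of the next regulators in order of p passed: Nr1h4, the bile acid receptor FXR, had −0.38 (limma adjusted p = 0.0621), Cebpa, a hepatocyte transcription factor, −0.55 (0.0702) and Foxa2, a pioneer factor of liver, −0.70 (0.0773). Nr1d1 missed the threshold without Ad-MafG 1 (adjusted p 0.0525) and Srebf2 without Ad-MafG 3 (0.0507). Without background correction Nr1d1 had −0.28 and Nr2f2 −0.24, and Nr2f2 did not pass. Nr2f2 missed it when any array except Ad-Control 2 was left out (up to 0.0934) and Rxra whichever array was left out (up to 0.134), and Rxra passed in 7 of 14 settings that kept all 6 arrays.

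**Figure D5:**
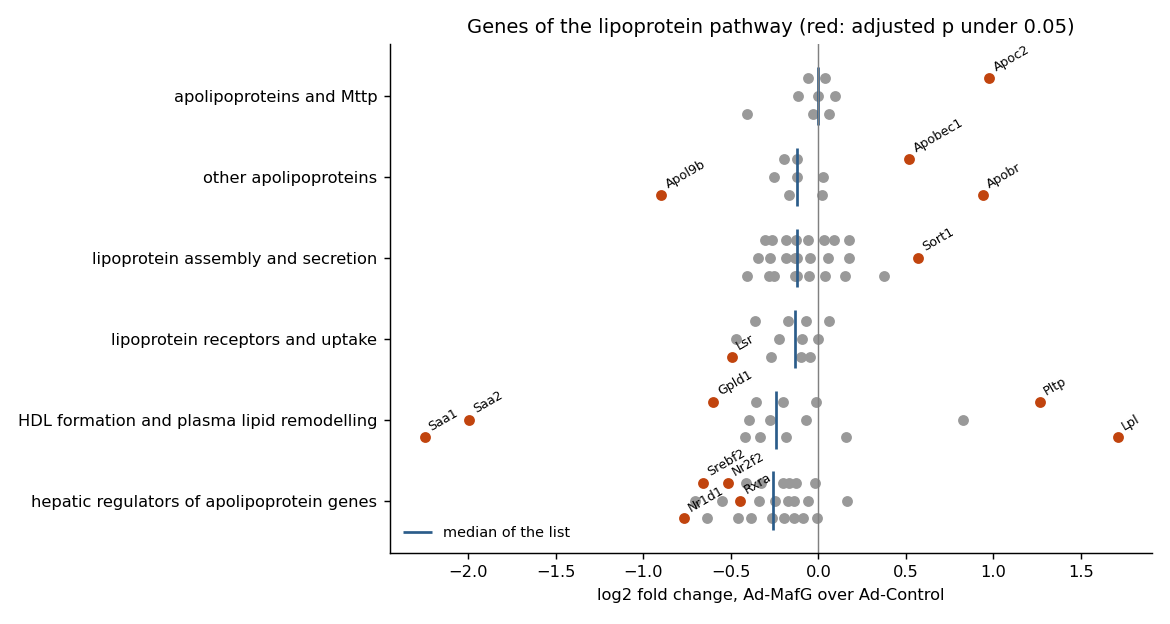
Log2 difference, Ad-MafG over Ad-Control, of each tested gene of the members and of 5 lists of the lipoprotein pathway. Points are genes, red points passed the threshold and are named, and vertical bars are list medians, which run from −0.0037 for the members to −0.26 for the regulators.

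Markers of other cells moved between the groups beside these genes. Of the Kupffer cell and macrophage markers 5 of 10 tested genes were higher and 0 lower. They were Adgre1 by 1.40, Cd14 by 1.35, C1qc by 1.13, C1qb by 0.98 and C1qa by 0.77. Among all tested genes 6.29% were higher and 3.63% lower. The summed linear level of all 10 markers was 28957 to 30952 in Ad-MafG livers and 14403 to 19425 in Ad-Control livers, without overlap. When single arrays were left out, 2 to 5 of the 10 were higher. Apoc2, Lpl, Pltp and Apobr, all of which macrophages can express, were higher in the same livers, and are named after their values were seen. Apoe and Apoc1, in the same cluster as Apoc2, were not higher (−0.11 and −0.03). The macrophage marker Lyz2 had 0.45 and did not pass (limma adjusted p = 0.283). The part of macrophages in the Apoc2 result was not tested. Of the same 10, those often used for resident Kupffer cells did not pass: Clec4f had 0.27, Vsig4 0.24, Marco −1.06 and Timd4 −1.48. The 10 were listed together, and these are set apart with their values known. Timd4 was detected on 1 of 3 Ad-MafG and 3 of 3 Ad-Control arrays. Without Ad-MafG 2, Timd4 passed as lower (limma adjusted p = 0.0275).

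Hepatocyte markers summed to 195437 to 215290 in Ad-MafG livers and 217932 to 230976 in Ad-Control livers, all 10 tested genes were below 0, and 1 (Pck1, a gluconeogenic enzyme, −0.85, limma adjusted p = 0.0375) passed. Without background correction or normalization 8 of 10 lay below 0. The dimmest were Alb, at 5.88 to 7.22 over the 6 arrays, and Tat, at 5.74 to 6.99. Their differences were −0.34 and −0.16 (limma adjusted p of 0.478 and 0.77), so their signs add little to the count below 0. The bright Hpx, Ttr and Serpina1c had −0.01, −0.03 and −0.05. Pck1 missed the threshold without Ad-MafG 1 or 3 or Ad-Control 1 or 3 (up to 0.107). Of 12 stellate cell and fibroblast markers 4 were higher (Col1a1, Col1a2, Col3a1 and Lum), and 1 to 3 were when single arrays were left out. Another 3 of the 12 lay below 0: Des at −0.13, Reln at −0.05 and Rgs5 at −0.02. The summed level of all 12 overlapped, at 19791.5 to 22887.3 in Ad-MafG livers and 17327.5 to 20732.8 in Ad-Control livers. Among all tested genes 6.29% were higher and 3.63% lower. Col1a2 was detected on 3 of 3 Ad-MafG and 0 of 3 Ad-Control arrays, at least 1.61-fold higher, and so was tested only through the group where it is higher. Endothelial, T and NK cell, B cell, neutrophil and cholangiocyte markers had 0 calls in limma, with 2 genes in all of these lists at an unadjusted p under 0.05. Without Ad-Control 2, 3 of 4 T and NK cell, 1 of 8 endothelial and 1 of 3 neutrophil markers were higher. Over the 20 other settings the neutrophil marker S100a8 passed as higher in 9 and the endothelial marker Lyve1 in 7, both named after their values were seen. Of 2 erythroid markers tested, Alas2, the first enzyme of haem synthesis in red cells, was lower (−1.13, limma adjusted p = 0.0183). The other, Hba-a1, went the other way at 0.40 and did not pass (limma adjusted p = 0.217). Alas2 missed the threshold without Ad-MafG 1, Ad-MafG 3 or Ad-Control 1 (up to 0.069). The 4 enterocyte markers on the array, from the other organ that makes apolipoproteins, were not detected on any array. In whole liver, fewer cells of a type and less RNA per cell cannot be told apart.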

How the data were processed

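The deposited tables hold, per the file headers, a non-normalized bead intensity and a detection p-value for every probe and array, and intensity values that the authors scaled. The authors' deposited table adds group means and a difference score; no source used here gives its error model. Against the first table, each scaled column was a straight line of its own array's signal, with slopes of 0.872 to 1.195. The scaled values are linear, uncentred and of known direction, with medians per array of 34.2 to 46.0, and no source used here gives their method. RNA came from a QIAzol extraction and was amplified as biotin-labelled cRNA, per the labels' protocols. Each sample is a separate mouse, per the series' design text, and all 6 arrays lay on 1 slide.

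Non-normalized signals were corrected by normexp from the detection p-values (offset 16), taken to log2 and quantile normalized with limma 3.58.1 in R 4.3.3. A probe counted as detected at p under 0.05 and had to be so on 3 or more of 6 arrays, which kept 12893 of 25697, and the brightest probe stood for a gene, which left 8827 genes. Symbols came from the platform annotation: 23978 probes had 1, 0 had several and 1719 had none. Neighbours and promoters came from RefSeq tables of GRCm38.p6; the array files name no build. Groups were compared with lmFit and eBayes, two-sided, without covariates, with Benjamini-Hochberg adjustment and a threshold of 0.05. The fit was tested on simulated data.

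The members and lists were chosen with earlier results of these data known. The text names every member, each pathway list's genes past the threshold and the next 3 by p, each marker list's genes past the threshold, Mafg, and the 3 genes closest in pattern to Apoc2. The design text states nothing that pairs mice by number. Same-numbered arrays did not deviate together (r of 0.04, −0.14 and −0.12), but 3 arrays a group cannot exclude a pairing. Alternatives varied the correction, scaling, detection filter, offset, probe choice, variance model and arrays.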

Additional observations from a re-analysis of the deposited data

How the results depend on the processing

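Apoc2, read by its brighter probe or the mean of both, was higher and passed in all 20 alternatives. The log2 difference ran from 0.56 (mean of its probes) to 1.15 (without background correction or normalization, a setting chosen after seeing the data). With single arrays left out it was 0.91 to 1.05. Same-numbered arrays did not deviate together, and with the replicate number as a block its adjusted p was 0.0488. The dimmer Apoc2 probe alone did not pass under any correction or scaling tried. Its differences ran from 0.11 without background correction to 0.40 without correction or normalization (limma adjusted p = 0.0528). Small differences changed sign: Apoa2 was −0.17 with median scaling and −0.20 with the authors' scaled values. Apoa4 was −0.14 with median scaling, −0.0047 with cyclic loess, −0.17 with the authors' values, −0.072 with array weights and −0.10 to 0.19 with single arrays left out. Apoc1 was 0.0085 without correction or normalization, where Mttp passed at 0.36 and 2 members were higher. With single arrays left out Apoc3 ranged from −0.026 to 0.018 and Mttp from −0.0061 to 0.18. Genes higher numbered 555, 116 with the block, 2202 without correction or normalization and 153 to 735 with single arrays left out. Genes lower numbered 320, 523 without background correction, 212 without a detection filter, 528 with trend and robust eBayes, 25 with the block, 514 probes when every probe was a feature, 126 without correction or normalization and 38 to 431 with single arrays left out. Of called genes 63.4% were higher, 75.3% with median scaling and 94.6% without correction or normalization. Calls in the other apolipoproteins numbered 3, 0 with the block and 0 to 2 with arrays left out. Assembly genes numbered 1, 2 without background correction, 2 with median scaling, 0 with the block, 4 without correction or normalization and 0 to 1 with arrays left out. Receptor genes numbered 1, and 0 with median scaling, cyclic loess, no detection filter, the block, offset 1 or any array left out, and the 1 without correction or normalization was higher. Remodelling genes numbered 5, 3 without a detection filter, 8 with trend and robust eBayes, 1 with the block and 2 to 5 with arrays left out. Regulators numbered 4, all lower, 0 with the block, 1 that was higher without correction or normalization and 1 to 3 with arrays left out. A left-out array also means fewer samples; other causes were not tested.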
